A study of Mus musculus with 6 samples.

Results

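The platelet-derived growth factor (PDGF) family was followed here in p53-deleted mouse embryonic fibroblasts (MEFs), fibroblasts grown out of mouse embryos, with and without a hairpin against ARF. It was taken as the 7 genes annotated as PDGF receptors, receptor-like protein and ligands, of 54752 genes in the deposited count table, and all 7 passed the filter on low counts. The receptors are Pdgfra and Pdgfrb, the receptor-like gene is Pdgfrl, and the ligands are Pdgfa, Pdgfb, Pdgfc and Pdgfd. By the labels, every culture was of the line described as p53-deleted, so the controls carried that deletion too. The labels do not say whether both groups were grown from the same isolate of cells. The control group (shNT, 3 libraries) had received a negative control shRNA by lentivirus and is labelled WT in genotype. The other group (shARF, 3 libraries) had received a lentiviral p19ARF shRNA and is labelled as ARF knockdown. All titles carry the tag neo. The labels call the replicates biological, but do not say whether they came from separate embryos, infections or dishes, so each p-value is set against the spread of these libraries alone, which may be technical. How many hairpins were used, and from how many embryos the line was made, is not stated in any source used here.

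PDGF ligands are secreted dimers that bind receptor tyrosine kinases on mesenchymal cells and drive fibroblasts, pericytes and smooth muscle cells to divide and migrate. PDGF-A and PDGF-B are processed inside the cell, whereas PDGF-C and PDGF-D carry a CUB domain that proteases outside the cell must remove. PDGF-AA and PDGF-CC act mainly through the alpha receptor, PDGF-DD mainly through the beta receptor, and PDGF-BB through both. ARF, the alternative product of Cdkn2a, is best known for stabilising p53, and has been reported to repress Pdgfrb in cells around blood vessels, in part without p53. The comparison of shARF with shNT thus asks, for this family, which transcripts differ when ARF is lowered in cells that lack p53.

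The bases upstream of the transcription start are shown for the receptor gene that fell and for the pair of CUB-domain ligand genes that rose, because these 3 genes carry the largest differences below. RefSeq sequences (build GRCm38.p6) were matched by symbol for 4 of the 7 genes (Pdgfra, Pdgfa, Pdgfc and Pdgfd). The windows of Pdgfa overlap annotated exons and are not printed. Each window is the 250 bases before the start, 5′ to 3′, on the plus strand, with no overlap with an exon of GENCODE M21. Pdgfra lies at chr5:75152001-75152250, Pdgfc at chr3:81036166-81036415 and Pdgfd at chr9:6168236-6168485. Capitals mark CG dinucleotides and, in Pdgfd, a TATAAA motif.
Pdgfra: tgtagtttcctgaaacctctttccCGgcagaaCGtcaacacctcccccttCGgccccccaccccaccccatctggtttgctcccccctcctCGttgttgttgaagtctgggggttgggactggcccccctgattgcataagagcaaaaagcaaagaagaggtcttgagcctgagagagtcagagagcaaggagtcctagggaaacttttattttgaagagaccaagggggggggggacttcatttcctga
Pdgfc: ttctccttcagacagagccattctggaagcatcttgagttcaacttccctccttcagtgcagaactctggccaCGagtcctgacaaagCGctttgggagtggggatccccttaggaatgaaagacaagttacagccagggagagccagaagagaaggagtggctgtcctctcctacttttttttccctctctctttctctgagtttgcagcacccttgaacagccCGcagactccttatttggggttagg
Pdgfd: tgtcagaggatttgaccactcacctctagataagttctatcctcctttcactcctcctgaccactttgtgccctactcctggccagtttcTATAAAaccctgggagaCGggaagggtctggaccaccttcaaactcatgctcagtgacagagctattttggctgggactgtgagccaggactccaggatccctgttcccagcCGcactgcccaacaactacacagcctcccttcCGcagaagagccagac
These windows hold 4, 3 and 3 CG dinucleotides, against a median of 6 over 32817 windows of the same length in the same source. Those 32817 windows were not filtered for overlap with exons. The Pdgfa windows, left out for that overlap, hold 19 and 28 CG dinucleotides, with 1 and 2 matches to GGGCGG. Motifs were searched on both strands, and no match overlapped another. TATAAA, present once in the Pdgfd window, is held by 12.4% of all windows. GGGCGG (32.7% of windows), CCAAT (33.8%), the AP-1 motif TGACTCA (4.46%) and the E-box CACGTG (6.02%) have no match in any of the 3 printed windows. A match or its absence describes these letters only.

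Total counts were 40.26 to 47.02 M per library. The hairpin's target, Cdkn2a, was at 231, 218 and 223 CPM (counts per 1 M counts of the library, scaled by TMM factors) with the control hairpin and at 95.6, 103 and 107 CPM with the ARF hairpin, so shARF held 45.5% of the shNT level. Cdkn2a also encodes p16INK4a, and both products were counted as 1 gene. The groups differed in more than the target. Xist, which coats the inactive X chromosome in female cells, fell from 387 ± 26.5 to 45.7 ± 7.49 CPM (SD, n = 3 each). The Y-linked gene Kdm5d was at 0.782 ± 0.216 and 19.5 ± 0.623 CPM. Ddx3y, also Y-linked, already had 24.4 ± 1.6 CPM with the control hairpin and rose to 85.3 ± 4.19 CPM with the ARF hairpin. Xist and Ddx3y were thus counted in both groups, and whether either culture was a mixture of cells was not tested. All 8 tested HoxB and all 6 tested HoxC genes fell, and all 8 tested HoxD genes rose. Of 11 tested HoxA genes, 9 rose and 1 fell. By the same test, given below, 28.8% of all genes tested rose and 27.7% fell. The part of such differences between the cultures in the results below was not tested, and they cannot be told apart from the hairpin, since both separate the same libraries.

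Pdgfra, which encodes the alpha receptor, fell to 18.2% of its control level, and the beta receptor gene Pdgfrb differed by a few percent. Pdgfrl and all 4 ligand genes rose, with the largest rise for Pdgfd. In the test across all genes (edgeR's quasi-likelihood test, Benjamini-Hochberg adjusted p below 0.05), 6 of the 7 genes were called, as were 56.4% of 17128 genes tested. Of these, 5 were higher in shARF, against 28.8% of genes tested, and 1 was lower, against 27.7%. A change of at least 2-fold was found for Pdgfd (higher, as for 6.59% of genes tested) and Pdgfra (lower, as for 7.78%). Each of the 7 had no overlap in CPM between the groups, which was also the case for 64.6% of genes tested. The median log2 fold change of the ligands was 0.75 and that of all genes tested was -0.01. With so large a share of all genes called, a call by itself sets no gene of the family apart, and sizes are given for each.

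Pdgfra (ENSMUSG00000029231.15; GRCm38 chromosome 5, 75152292 to 75198215, plus strand) was at 497, 508 and 500.5 CPM in shNT and at 92.4, 88.8 and 93.0 CPM in shARF. Every shARF library lay far below every shNT library, and libraries of 1 group were within a few percent of each other. Pdgfra fell from a mean of 502 ± 5.64 to 91.4 ± 2.23 CPM (SD, n = 3 each), a log2 fold change of -2.46 (SE 0.03, adjusted p = 8.76e-08, edgeR). The shARF level was 18.2% of the shNT level (95% confidence interval 17.4 to 18.99%), or 5.49-fold lower. Of the 17128 genes tested, 721 (4.21%) had a larger absolute log2 fold change. In bulk samples, fewer cells with the transcript and less transcript per cell cannot be told apart.

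Pdgfrb (ENSMUSG00000024620.11; chromosome 18, 61045150 to 61085061, plus strand) encodes the beta receptor, the one tied to ARF by earlier reports. It was at 344, 348 and 352 CPM in shNT and at 365, 352 and 378 CPM in shARF. The lowest shARF library lay just above the highest shNT library. The means were 348 ± 3.83 and 365 ± 12.9 CPM, and the log2 fold change of 0.07 (SE 0.03) did not pass the test (adjusted p = 0.0853, edgeR). The interval of the shARF level ran from 99.9 to 110.04% of shNT, which spans no change at its lower end. Without shARF replicate 2, the log2 fold change of 0.10 passed (adjusted p = 0.0272). Over the alternatives other than centring on its 10 Mb window, its adjusted p lay between 0.0272 and 0.557. With library sizes alone as the scaling, it was -0.02.

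Pdgfrl (ENSMUSG00000031595.9; chromosome 8, 40926212 to 40990785, plus strand) encodes a secreted protein that resembles the extracellular part of the receptors and has no kinase. It was at 51.0, 51.4 and 50.9 CPM in shNT and at 62.3, 58.2 and 60.4 CPM in shARF. All shARF libraries were higher, by a small step. Its log2 fold change was 0.24 (SE 0.04, adjusted p = 0.00163), and 62.04% of genes tested moved further. It was 0.15 with library sizes alone (adjusted p = 0.0148) and 0.41 when centred on its 10 Mb window, both called.

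**Figure D1:**
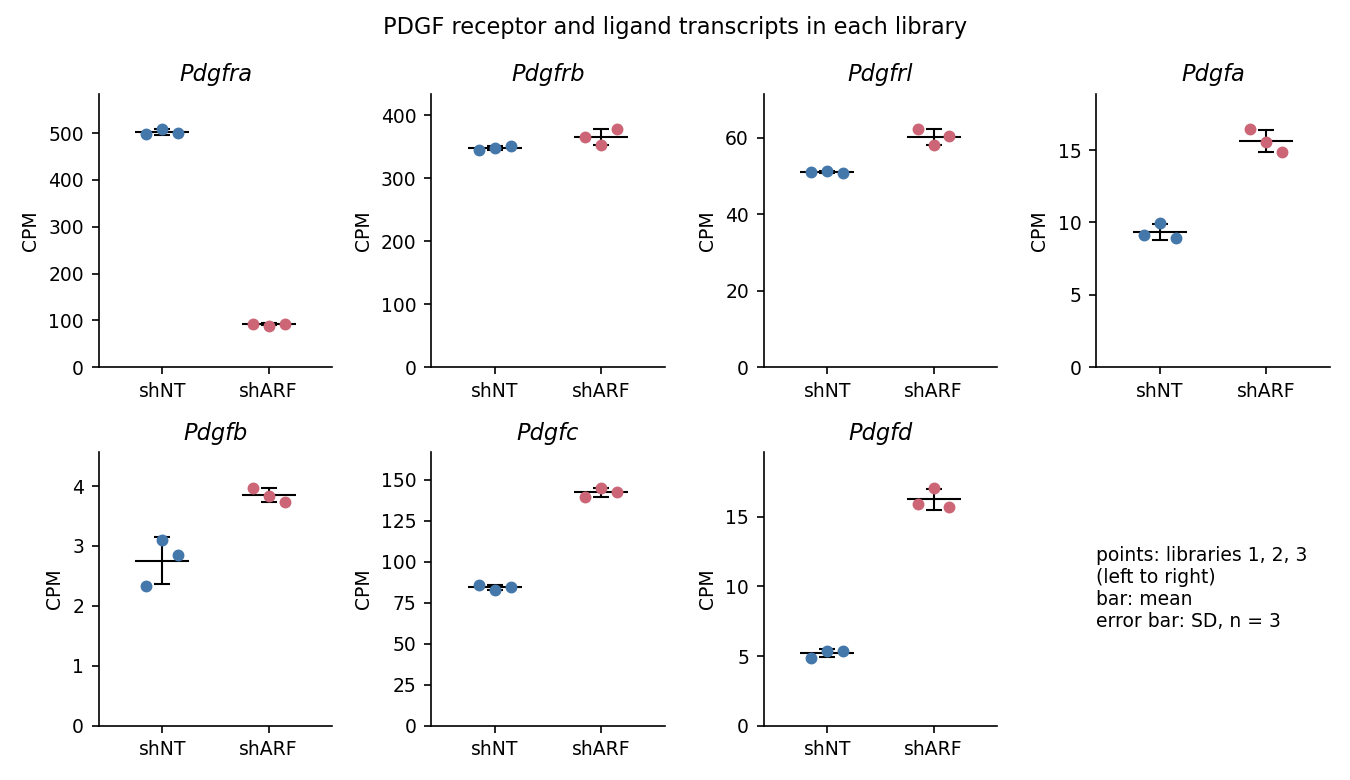
CPM (y axis, from 0, a scale for each panel) of the 7 PDGF genes in the 3 shNT and 3 shARF libraries; points are libraries, the bar is the mean and the error bar the SD. The shARF points of Pdgfra sit at 88.8 to 93.0 CPM against 497 to 508 in shNT, Pdgfrb is nearly level, and the other 5 genes are higher in every shARF library.

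Among the ligands, Pdgfc and Pdgfd hold the CUB domain that must be cut off outside the cell. Pdgfc (ENSMUSG00000028019.9; chromosome 3, 81036416 to 81214040, plus strand) had the highest counts of the 4, with 85.8, 82.5 and 84.5 CPM in shNT and 139, 145 and 142 CPM in shARF. All shARF libraries exceeded all shNT libraries. Pdgfc rose from 84.3 ± 1.69 to 142 ± 2.86 CPM (log2 fold change 0.75, SE 0.03, adjusted p = 2.13e-06). Pdgfd (ENSMUSG00000032006.15; chromosome 9, 6168584 to 6378850, plus strand), whose product acts mainly on the beta receptor, was at 4.86, 5.38 and 5.34 CPM in shNT and at 15.9, 17.1 and 15.7 CPM in shARF. It rose 3.13-fold (95% confidence interval 2.79 to 3.51), a log2 fold change of 1.64 (SE 0.07, adjusted p = 3.05e-06). This was the largest change among the 4 ligands, and 7.81% of genes tested moved further.

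Pdgfa and Pdgfb encode the short ligands that cells can secrete in active form. Pdgfa (ENSMUSG00000025856.15; chromosome 5, 138976014 to 138997370, minus strand) was at 9.12, 9.96 and 8.92 CPM in shNT and at 16.4, 15.6 and 14.9 CPM in shARF. The groups were well apart, and Pdgfa rose with a log2 fold change of 0.74 (SE 0.07, adjusted p = 1.17e-04). An antisense gene, 6330403L08Rik, overlaps Pdgfa and rose as well, from 7.3 ± 0.178 to 11.6 ± 0.857 CPM (0.66). Whether counting used strand is not stated in any source used here, so reads of these genes may be mixed. Pdgfb (ENSMUSG00000000489.7; chromosome 15, 79995874 to 80014977, minus strand) was the least counted, with 107, 151 and 117 reads in shNT and 178, 168 and 167 reads in shARF. Those reads amount to 2.32, 3.1 and 2.84 CPM and to 3.97, 3.83 and 3.74 CPM, so the lowest shARF library lay above the highest shNT library by more than the SD within shNT. Its log2 fold change of 0.48 (SE 0.13, adjusted p = 0.015) had the widest interval of the family, from 0.18 to 0.78.

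**Figure D2:**
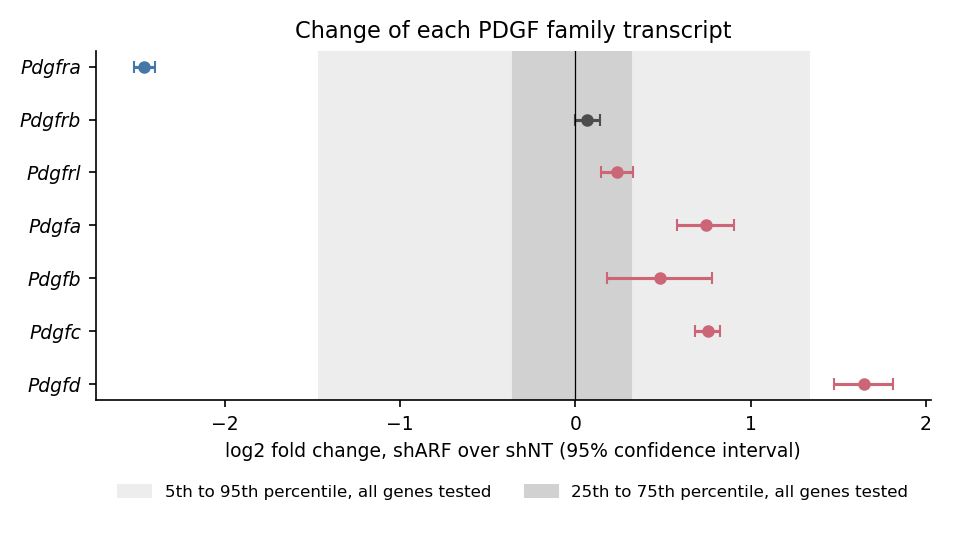
Log2 fold change of shARF over shNT (x axis) with its 95% confidence interval for each of the 7 genes (y axis), over bands that hold the 5th to 95th and 25th to 75th percentiles of all 17128 genes tested (-1.46 to 1.33 and -0.36 to 0.32). Pdgfra at -2.46 and Pdgfd at 1.64 lie outside the wider band, and the points of Pdgfrb and Pdgfrl lie inside the narrower one.

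Levels can be compared between genes once counts are divided by gene length, here CPM per kb of annotated exon. In shNT the order was Pdgfrb (63.6 ± 0.699 CPM per kb), Pdgfra (50.1 ± 0.563), Pdgfc (16.6 ± 0.332), Pdgfrl (16.3 ± 0.0921), Pdgfa (2.99 ± 0.177), Pdgfd (1.65 ± 0.0911) and Pdgfb (0.662 ± 0.095). Pdgfc and Pdgfrl, neighbours in that order, did not differ beyond their spread. In shARF the order became Pdgfrb (66.7 ± 2.36 CPM per kb), Pdgfc (27.9 ± 0.562), Pdgfrl (19.3 ± 0.652), Pdgfra (9.12 ± 0.223), Pdgfd (5.15 ± 0.232), Pdgfa (5.01 ± 0.253) and Pdgfb (0.924 ± 0.0286). Here Pdgfd and Pdgfa were within their spread of each other. Pdgfra thus went from a level near that of the beta receptor to one below Pdgfc and Pdgfrl. With the longest annotated transcript as the length, an alternative chosen after seeing the data, Pdgfra (73.5 CPM per kb) stood above Pdgfrb (64.2) in shNT, and Pdgfrb (67.3) above Pdgfra (13.4) in shARF. Pdgfrl then stood above Pdgfc in shNT (24.7 and 23.9), and Pdgfa above Pdgfd in shARF (7.59 and 5.19).

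Within a library the ratio of the receptors does not depend on how libraries are scaled. The length-scaled log2 ratio of Pdgfra to Pdgfrb was -0.34, -0.33 and -0.36 in shNT and -2.85, -2.86 and -2.90 in shARF. Its mean shifted by -2.53 on the log2 scale, more than 100 times the SD within either group (0.0189 and 0.0226). An exact permutation test (two-sided) gave 0.1, which is the smallest p possible with 3 libraries a group (p = 0.2 adjusted over the 2 ratios computed). Of the length-scaled transcripts of both receptors, Pdgfra made up 44.1 ± 0.324% in shNT and 12.04 ± 0.165% in shARF (53.4 and 16.6% with the longest transcript as the length). The sum of both receptors was 114 ± 1.02 CPM per kb in shNT and 75.8 ± 2.56 CPM per kb in shARF, or 66.7% of the control sum.

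The ligand side moved the other way. The sum of the 4 ligands was 21.9 ± 0.0244 CPM per kb in shNT and 39.04 ± 0.683 CPM per kb in shARF, 1.79 times the control sum. Pdgfc held most of it in both groups, with 75.8 ± 1.46% in shNT and 71.6 ± 0.801% in shARF. Pdgfd went from 7.54 ± 0.425% to 13.2 ± 0.363% of ligand transcripts, and the ranges over libraries did not overlap. Pdgfa made up 13.7 ± 0.815% and 12.8 ± 0.702%. The log2 ratio of Pdgfa to Pdgfc, computed to compare a short with a CUB-domain ligand, was -2.47 ± 0.11 in shNT and -2.48 ± 0.0927 in shARF. Its difference of -0.01 was smaller than the spread within either group (exact two-sided permutation p = 0.8, 0.8 adjusted), and ran from -0.06 to 0.05 with each library left out in turn.

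**Figure D3:**
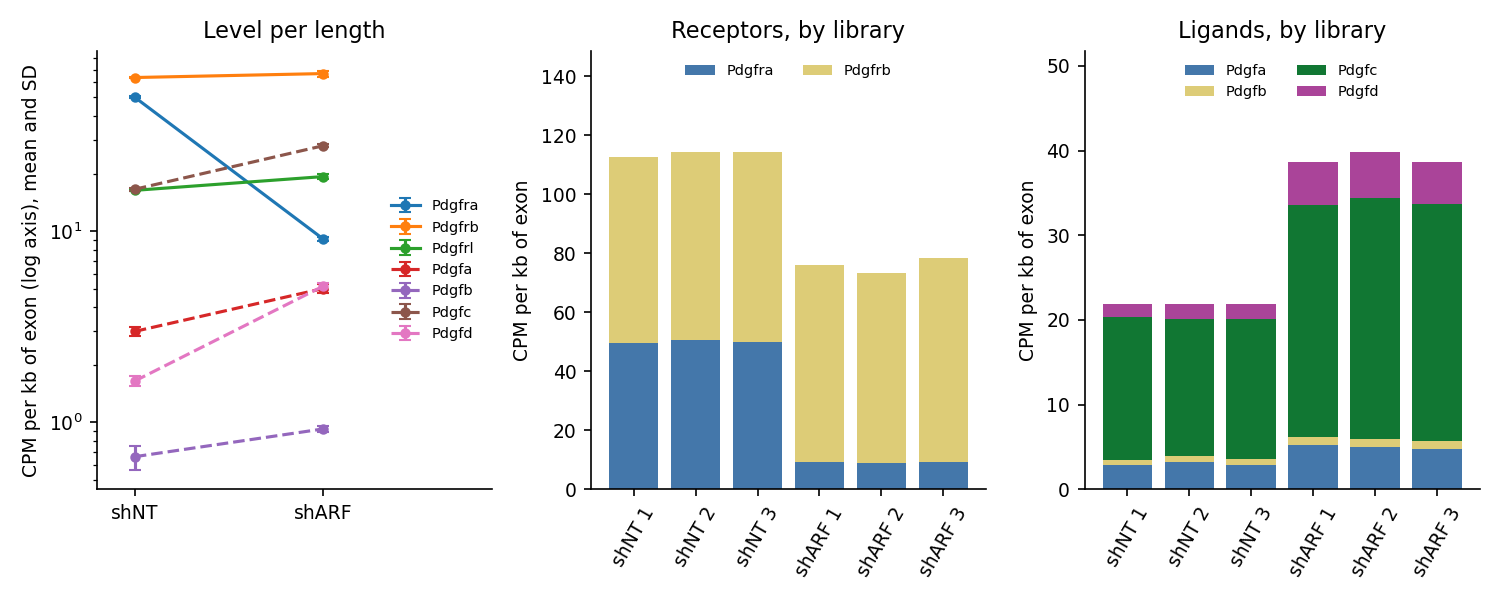
Left, mean and SD (n = 3) of each gene in CPM per kb of exon on a log axis, with receptors as solid and ligands as dashed lines; middle and right, the same unit stacked by gene for receptors and ligands in each library. The Pdgfra part of the receptor bars shrinks from 44.1 to 12.04%, while the ligand bars grow from 21.9 to 39.04 CPM per kb.

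Genes that process, bind or present PDGF ligands moved both ways. Of 14 listed, 11 were tested, 6 were higher and 3 lower (all genes tested: 28.8% higher and 27.7% lower), and the median log2 change was 0.15. Tissue plasminogen activator, encoded by Plat, cuts the CUB domain from PDGF-C, and Plat fell from 198 ± 6.14 to 133 ± 2.01 CPM (-0.58, adjusted p = 7.35e-06, edgeR). Plau, which encodes urokinase, a protease able to activate PDGF-D, rose from 41.3 ± 0.151 to 58.5 ± 1.87 CPM (0.50); it was named after its values were seen. Pcsk6, a proprotein convertase of the furin family, rose from 3.97 ± 0.0936 to 15.3 ± 0.527 CPM (1.94). Lrp1, an endocytic receptor that associates with the beta receptor, fell from 2056 ± 35.1 to 1684 ± 24.2 CPM (-0.29). A2m and St14 had no count in any library, which at these depths leaves levels under 0.0745 CPM (3 counts in the shallowest library, counting error only).

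Downstream of the receptors, 30 adaptor and effector genes were listed and tested, with 7 higher, 12 lower (28.8 and 27.7% over all genes tested) and a median log2 change of -0.06. Sos1, the exchange factor that loads RAS with GTP, fell from 113 ± 3.57 to 56.7 ± 2.25 CPM (-0.998, adjusted p = 3.06e-06), and Nras rose from 99.2 ± 2.73 to 184 ± 2.53 CPM (0.89). Akt1, a kinase downstream of PI3K, rose from 237 ± 2.39 to 377 ± 6.13 CPM (0.67). Grb10, an adaptor that binds activated receptors, fell from 857 ± 11.7 to 462 ± 7.98 CPM (-0.89). Of 14 negative regulators, 4 were higher and 7 lower (again beside 28.8 and 27.7% of all genes), with a median of -0.10. Ptprj, a phosphatase that acts on PDGF receptors, fell from 30.4 ± 0.611 to 19.9 ± 0.38 CPM (-0.61). Lrig1 fell from 104 ± 12.5 to 46.5 ± 0.527 CPM (-1.16), and Socs1 from 24.2 ± 2.57 to 13.7 ± 0.335 CPM (-0.82).

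Transcripts that PDGF induces in resting fibroblasts went both ways, with 10 of 22 higher, 8 lower (28.8 and 27.7% of all genes tested) and a median log2 change of -0.02. Has2, a hyaluronan synthase, fell from 214 ± 13.8 to 88.5 ± 2.41 CPM (-1.27, adjusted p = 2.45e-06). Odc1, which encodes ornithine decarboxylase, rose from 147 ± 2.43 to 230 ± 3.97 CPM (0.64). The cyclin gene Ccnd1 (1.43) and the AP-1 gene Fosl1 (1.12) also rose. The labels give serum in the growth medium and no PDGF treatment, so the list was not read after added PDGF. Any effect of the serum was not tested. Among receptor kinases related to the PDGF receptors and their ligands, 7 of 9 were tested, with 5 higher, 1 lower (28.8 and 27.7% over all genes) and a median of 1.06. Flt1 and Flt4, both VEGF receptors, rose from 5.88 ± 0.852 to 27.8 ± 0.18 CPM (2.24) and from 8.66 ± 0.597 to 35.3 ± 1.05 CPM (2.03). Csf1, the ligand of the class III kinase CSF1R, rose from 278 ± 11.8 to 582 ± 8.98 CPM (1.06). Flt3 had no count in any library.

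**Figure D4:**
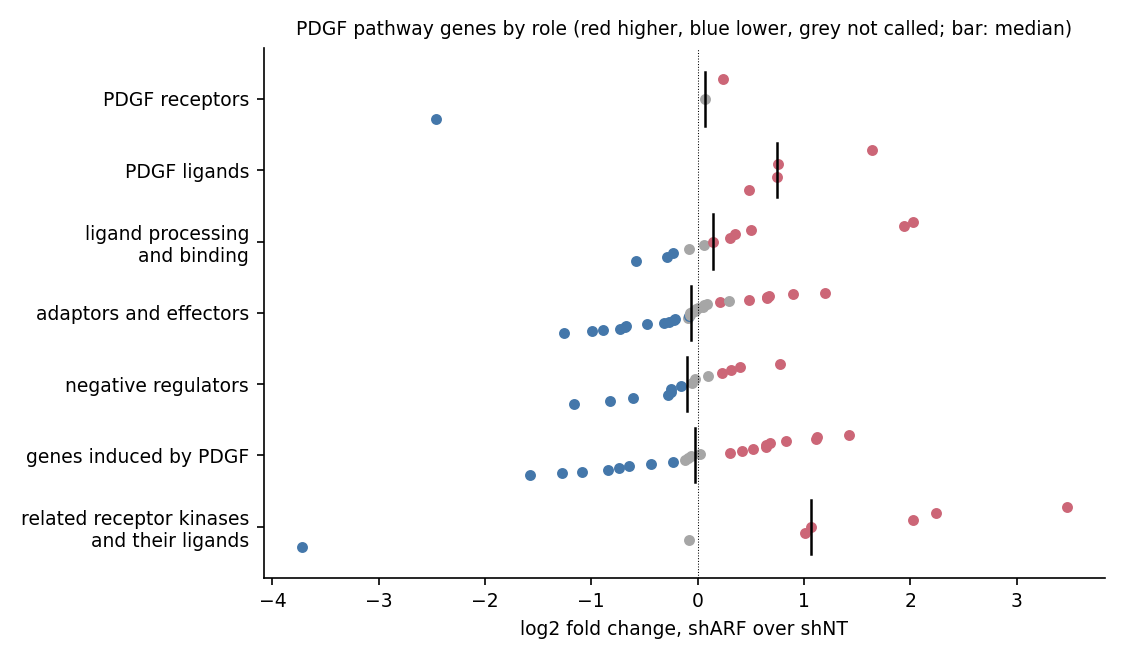
Log2 fold change of shARF over shNT (x axis) for each tested gene of the 7 lists (y axis), coloured by call, with a bar at each list's median. The 4 ligands all lie to the right with a median of 0.75, and the related receptor kinases and their ligands have a median of 1.06. The median of ligand processing and binding genes is 0.15. Adaptors, negative regulators and genes induced by PDGF have medians of -0.06, -0.10 and -0.02.

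The cultures carried fibroblast transcripts throughout. Summed CPM of 10 core fibroblast genes, among them Col1a1 and Fn1, ran from 24072 to 25888 in shNT and from 28063 to 28425 in shARF. Of these 10, 6 were higher and 2 lower (28.8 and 27.7% over all genes tested). The 2 lower genes were Postn, which fell from 1182 ± 17.2 to 511 ± 22 CPM (-1.21), and S100a4 (-0.18). Markers used for fibroblast progenitors that express the alpha receptor went both ways, with 4 of 11 higher and 4 lower (28.8 and 27.7% over all genes tested; median -0.34). Dcn fell from 198 ± 5.0 to 45.5 ± 3.55 CPM (-2.12), and Cd34 from 172 ± 0.523 to 128 ± 2.68 CPM (-0.43), while Col15a1 rose from 5.34 ± 0.287 to 7.93 ± 0.601 CPM (0.57). Their summed CPM ran from 870 to 1055 in shNT and from 541 to 741 in shARF. Its largest part was Prrx1, which varied widely within groups (405 ± 98.7 and 320 ± 88.6 CPM) and was not called. Of 11 pericyte and mural markers, 6 were tested, 4 were higher and 1 lower, beside the same shares of all genes. Their summed CPM ran from 72.6 to 76.3 in shNT and from 269 to 276 in shARF, most of it Cspg4 (47.8 ± 1.69 and 201 ± 1.36 CPM). Rgs5 fell from 2.77 ± 0.498 to 1.19 ± 0.14 CPM, and Abcc9, Higd1b and Vtn had no count in any library. The part of these differences in the change of Pdgfra was not tested.

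Markers of other cell types were mostly low, with exceptions in the neural, epithelial and platelet lists. The endothelial genes Cdh5 and Tie1 had no count in any library, and the 8 endothelial markers summed to 9.49 to 10.3 CPM in shNT and 4.95 to 5.7 CPM in shARF. Leukocyte markers summed to 2.48 to 2.69 and 1.25 to 1.61 CPM, with Adgre1, Itgam, Laptm5 and Tyrobp at 0. Gp1ba, Gp6 and Gp9 of platelets were at 0, and that list summed to 38.2 to 43.5 and 18.4 to 20.9 CPM, most of it Ppbp (28.3 ± 1.74 and 13.5 ± 1.05 CPM). The 8 epithelial markers summed to 36.8 to 39.7 and 34.4 to 35.9 CPM, but members went both ways. Krt18 fell from 12.7 ± 1.05 to 0.15 ± 0.13 CPM (-6.38). Krt19 rose from 22.2 ± 1.21 to 28.01 ± 0.614 CPM (0.33) and Cdh1 from 2.14 ± 0.185 to 4.8 ± 0.0355 CPM (1.17), and Krt14 rose from no count to 1.91 ± 0.112 CPM. The neural and glial list summed to 157 to 165 CPM in shNT and 205 to 229 CPM in shARF. Nearly all of that was Nes, which rose from 132 ± 5.68 to 181 ± 10.6 CPM (0.45), and Tubb3, which rose from 27.6 ± 1.56 to 38.9 ± 2.68 CPM (0.49). Olig1, Olig2, Sox2 and Sox10 of that list were at 0. The part of these markers in the change of the PDGF genes was not tested. Marker genes were named after their values were seen.

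No tested gene near Pdgfra fell as far as Pdgfra itself. Within 2 Mb on either side, 34 other genes were tested, 12 were higher and 5 lower (28.8 and 27.7% over all genes tested), and the median log2 change was 0.14 and a lowest value of -1.48. Chic2, the nearest expressed protein-coding gene on one side, rose from 24.01 ± 0.233 to 33.0 ± 0.283 CPM (0.46, adjusted p = 6.16e-05). Kdr, the nearest on the other side and itself a VEGF receptor of related structure, rose from 0.282 ± 0.0347 to 3.13 ± 0.37 CPM (3.47). Centred on the median of its 10 Mb window, the log2 fold change of Pdgfra was -2.60. Beside Pdgfrb, at 15.5 kb, the related receptor gene Csf1r fell from 4.49 ± 0.271 to 0.338 ± 0.141 CPM (-3.72). Around the ligand genes, Fam20c (1.08) and Glrb (1.68), neighbours of Pdgfa and Pdgfc, rose, Prkar1b (-2.30) and Cbx7 (-1.34), neighbours of Pdgfa and Pdgfb, fell. Of the neighbours of Pdgfd, Dync2h1 (0.31) rose and Casp12 (0.00) did not pass. The other neighbours, Camk2a of Pdgfrb (-0.42), Rpl3 of Pdgfb (-0.04) and Ctso of Pdgfc (0.16), did not pass either. Slc7a2 (1.41) and Mtus1 (0.86), on either side of Pdgfrl at 3.9 and 0.129 kb, rose more than Pdgfrl (0.24). Whether reads of these close genes were mixed was not tested.

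**Figure D5:**
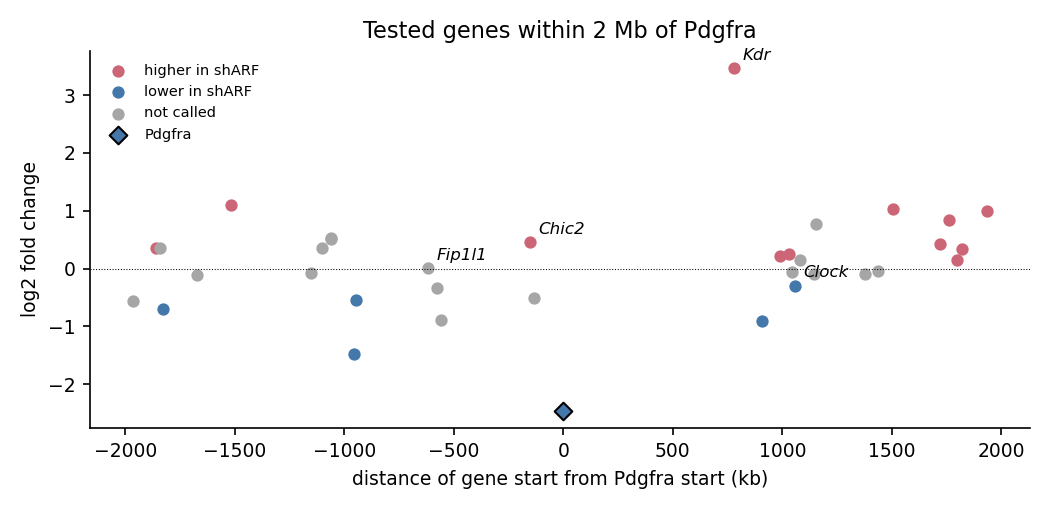
Log2 fold change of shARF over shNT (y axis) for the 34 tested genes within 2 Mb of Pdgfra against the distance of their start from its start in kb (x axis), coloured by call, with Pdgfra as a diamond. Pdgfra at -2.46 lies below all the others, the lowest of which is at -1.48, and Kdr at 3.47 lies highest.

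The genes whose centred log2 CPM over the 6 libraries lay closest to that of Pdgfra (root mean square difference 0.03 to 0.0768) were Lxn, Tdrkh, Hoxc5 and Pdzd2. Lxn fell from 143 ± 0.62 to 26.6 ± 0.837 CPM (-2.42), and the others had log2 fold changes of -2.55, -2.74 and -2.48. Closest to Pdgfrb (0.0144 to 0.0171) were Golga3, Slc25a3, Dcps and Arfip2, with log2 fold changes of 0.08, 0.08, 0.06 and 0.06. With 2 groups of 3, likeness here is mostly an equal difference between the groups.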

How the data were processed

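RNA-seq of total RNA depleted of ribosomal RNA, made with a stranded kit per the labels' protocols, was available for 3 shNT and 3 shARF libraries. The authors deposited whole-number counts per gene for 54752 versioned mouse Ensembl IDs. Per the submitters' processing notes, the tools were HISAT2 2.1.0, StringTie 1.3.2, Trim Galore 0.4.1, Picard 2.13.2, SAMtools 0.1.19 and DESeq2 1.34.0, in no stated role or order, on build GRCm38. The counter, the strand setting and any removal of duplicates are not stated in any source used here; removed duplicates would understate abundant genes. A further 6 columns match no sample and were not used. In the shARF columns the sequencing index differs from the titles, so group and replicate were used to match them.

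Symbols, coordinates and exon lengths came from GENCODE M21 (54723 IDs matched without the version). The test was edgeR 4.0.16 (R 4.3.3), glmQLFTest, group as the only term, TMM, filterByExpr (minimum count 10, minimum total 15), two-sided, Benjamini-Hochberg over 17128 genes, threshold 0.05; SE came from the F statistic. The steps were tested on simulated counts of 16811 genes. They recovered 55.2% of 1.5-fold, 71.6% of 2-fold and 93.9% of 4-fold changes, with 13 false calls. The simulation changed a far smaller share of genes than was called in the data, so it does not test the steps at that share. Each library was counted as 1 sample. Within a group, the chi-square per gene between libraries was 13.8 to 18.5, above counting noise, which does not show that the libraries are independent.

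The members, lists and tests were chosen with earlier results of these data known. Named genes were the 7 members, Cdkn2a, up to 4 members with the smallest p (mean of at least 1 CPM in a group) per pathway list, nearest expressed neighbours, and the 4 closest profiles (at least 5 CPM, pseudocount 0.5). Some genes that this rule names are not reported here. Alternatives were other scalings and filters, DESeq2 1.42.0, limma-voom (limma 3.58.1), a replicate block, a threshold of 0.01, centring on 10 Mb windows, each library left out and, for the ratios, a pseudocount of 10 counts.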

Additional observations from a re-analysis of the deposited data

How the results depend on the processing

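The counts of 5 PDGF genes higher and 1 lower were the same under other scalings, other filters, DESeq2, limma-voom and the replicate block. At a threshold of 0.01 there were 4 higher, since Pdgfb (adjusted p = 0.015) no longer passed, and without shARF replicate 2 there were 6, with Pdgfrb (0.10, adjusted p = 0.0272). The log2 fold change of Pdgfra ran from -2.60 to -2.44 over 16 alternatives and that of Pdgfd from 1.55 to 1.67. Pdgfb, at 107 to 178 reads per library, ran from 0.37 to 0.58 with each library left out (adjusted p 0.0131 to 0.0461). Pdgfrb was -0.02 with library sizes alone; it is itself the median gene of its 10 Mb window, so the centred value of 0 is fixed by construction and says nothing about it. Pdgfrl ran from 0.15 (library sizes alone) to 0.41 (centred). Over all genes, library sizes alone gave 4023 higher and 5874 lower (40.6% higher, against 51.0% with TMM). The share of Pdgfra among receptor transcripts was 53.4% in shNT and 16.6% in shARF with the longest transcript as the length. The replicate numbers share only a number: deviations of same-numbered libraries correlated at -0.09, -0.02 and 0.01. With the replicate block, 4604 genes were higher and 4309 lower, the log2 ratio of Pdgfra to Pdgfrb differed by -2.53 (exact sign-flip p = 0.25, the smallest that 3 pairs allow) and that of Pdgfa to Pdgfc by -0.01 (p = 0.75).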
